A study of Rattus norvegicus with 72 samples.

Results

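The mitochondrial genome of the rat is represented in the deposited gene tables by 37 rows of 32545. They were chosen by symbol alone, as every row whose name begins with AY172581 or, in any case, with Mt-nd, Mt-co, Mt-cyt or Mt-atp. The rows comprise 13 protein-coding genes, 2 rows of ribosomal RNA length and 22 rows of transfer RNA size. The rRNA rows carry sequence-derived names only: AY172581.24 (ENSRNOG00000043866) is the longer at 1570 nt and AY172581.9 (ENSRNOG00000030478) the shorter at 957 nt. These lengths were computed from the deposited counts and length-scaled values, and are the basis on which the rows are called long and short rRNA here. Row AY172581.16 had no count in any library, so its length could not be computed. It was placed among the 22 tRNA-size rows by elimination. Counting that row, 6 of the 37 had fewer than 10 counts in every library. The files give no positions.

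Mitochondrial DNA is a compact circular genome that encodes core subunits of the respiratory chain and of ATP synthase, together with the rRNAs and tRNAs needed to translate them inside the organelle. Both strands are transcribed as long precursors, and excision of the tRNAs releases most of the mature rRNAs and mRNAs between them. All other mitochondrial proteins, including the remaining subunits, the mitochondrial ribosomal proteins, the RNA polymerase Polrmt and the packaging and initiation factor Tfam, are encoded in the nucleus. The proximal tubule, which reabsorbs most of the filtrate by sodium-driven transport, is among the mitochondria-rich segments of the nephron.

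Adult male Sprague-Dawley rats underwent right nephrectomy or a sham operation, in which the pedicle of the right kidney was freed and the wound closed, and the left kidney was taken 24, 48 or 72 h later. Microdissected glomeruli, microdissected S1 proximal tubules (the initial convoluted stretch of that segment) and whole left kidney gave 4 libraries per tissue, surgery and time, 72 in all. Libraries of both segments were made by NuGEN Ovation RNA-seq V2 amplification and read from 1 end, while whole kidney RNA was made into TruSeq Stranded libraries and read from both ends. Whether the libraries of a group came from different animals is not stated in the labels. The p-values then measure only how libraries of a group spread, which may be technical.

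Several libraries stood apart. In the sham 24 h group, the library labelled glomeruli and numbered 2 had 51.2% of its gene counts on mitochondrial genes, and the S1 library of the same number had 22.1%, each inside the range of the other segment. Both were left out, so 23 glomerular, 23 S1 and 24 whole kidney libraries were used, with 2643258 to 37408599, 7883861 to 87368807 and 10102869 to 55517383 gene counts. The 4 whole kidney libraries numbered 3 and 4 at 24 h had mitochondrial shares of 71.0 to 80.6%, against 36.0 to 66.3% in the other 20. In those 4 libraries the mean log2 CPM (the count scaled to a common library total) of 7 podocyte markers was 1.42, 2.11, 2.43 and 4.21, where the median over whole kidney libraries was 4.75. Proximal tubule markers reached down to 6.02 among them after nephrectomy and 7.04 after sham surgery, where that median was 8.24. Nephrectomy library 3 also had the fewest gene counts of whole kidney, 10102869, and 93.9% of its placed entries lay at more than 1 site. The part of these 4 libraries in the whole kidney results was not tested beyond the values given with and without them. Among the used libraries the labelled segments carried their own markers. In glomeruli podocyte markers averaged 10.1 log2 CPM and 12 proximal tubule markers 3.88, and in S1 tubules they averaged 1.34 and 9.37. These values were scaled within each tissue, so they compare markers within a segment and not levels between segments.

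Mitochondrial transcripts took a far larger part of the S1 libraries than of the glomerular ones. Over 23 glomerular libraries the share of gene counts was 9.87% at the lowest, 16.1% at the median and 22.9% at the highest. Over 23 S1 libraries it was 41.3, 58.5 and 72.3%. Every S1 library used lay above every glomerular one, but the 2 libraries left out were set aside for their values on this same share. With them put back, 21 of 24 S1 libraries lay above all glomerular ones and the difference of means was 39.9 points (permutation p = 2e-05). The means were 16.3% ± 3.15 (SD, n = 23) and 59.1% ± 7.56 (SD, n = 23) without them, a difference of 42.9 percentage points (two-sided permutation test, p = 2e-05, the smallest that 100000 resamples can give). The difference was 42.1 points at 24 h, 40.0 at 48 h and 46.3 at 72 h, with no overlap at any time. Of uniquely placed reads, which include those outside genes, the mitochondrial share was 0.527 to 6.63% in glomeruli and 5.80 to 56.0% in S1 tubules. Within each time, all S1 libraries still exceeded all glomerular ones on this base. The part of unique reads that fell in genes moved with the segment, at a median of 24.4% in glomeruli and 63.1% in S1 tubules, and its part in the result was not tested. In tissue pieces, fewer cells of a type and less RNA per cell cannot be told apart.

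**Figure D1:**
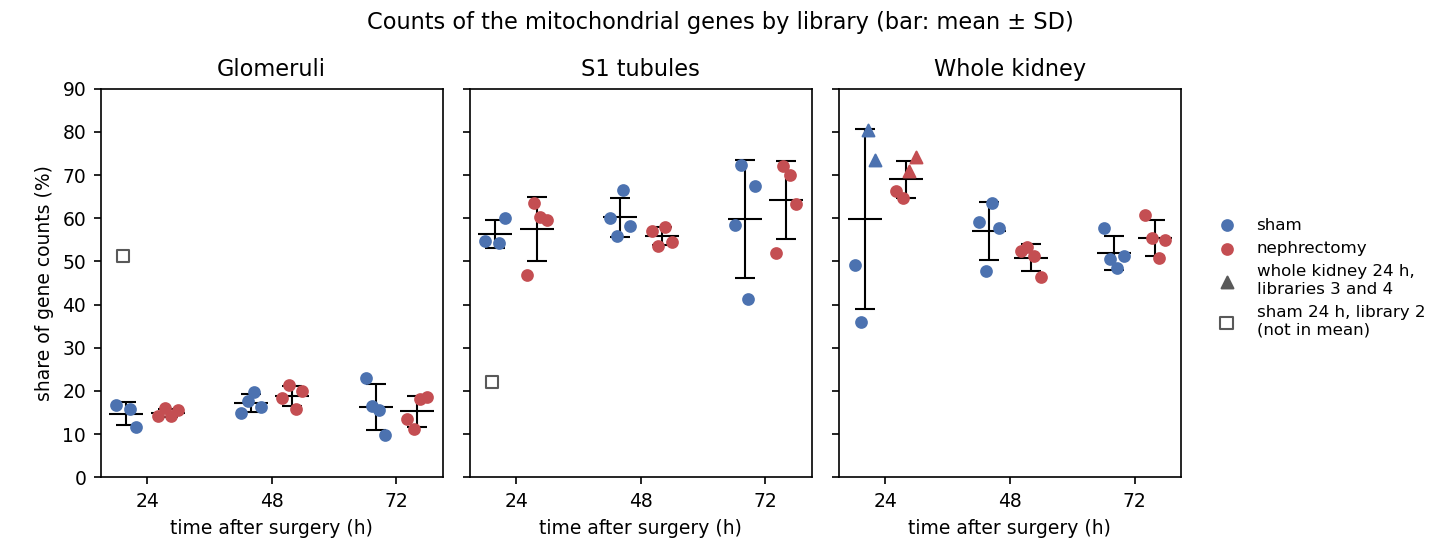
Share of gene counts taken by the 37 mitochondrial genes (vertical axis, percent) against time after surgery (h) in 72 libraries, with 1 point per library and bars for mean ± SD. Glomerular points lie between 9.87 and 22.9% and S1 points between 41.3 and 72.3%, apart from the open squares at 51.2 and 22.1%, and the whole kidney triangles reach 80.6%.

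Whole kidney libraries, made with another kit and therefore not tested against the segments, had a mitochondrial share of 36.0% at the lowest, 55.3% at the median and 80.6% at the highest. The mean was 57.4% ± 10.4 (SD, n = 24), and 53.9% ± 7.15 (SD, n = 20) without the 24 h libraries numbered 3 and 4.

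Each mitochondrial gene that could be tested was higher in S1 tubules than in glomeruli. With edgeR's quasi-likelihood test on 46 libraries and Benjamini-Hochberg adjustment over all genes, 31 of 31 tested members were called higher, and the other 6 were those with too few counts to test. The background was high: 53.5% of 24488 genes were called and 22.2% were called higher. The median log2 fold change was 3.29 for the members and -0.59 for all genes. Groups of 23 did not overlap in log2 CPM for 12 of 13 protein-coding genes, 2 of 2 rRNA rows and 2 of 16 tRNA rows, where every S1 library was above every glomerular one for 3.05% of all genes. On the deposited RPKM scale this held for 9 of 13, 2 of 2 and 0 of 16 members and for 1.29% of all genes.

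Complex I, which takes electrons from NADH, has 7 subunits in the mitochondrial genome, and they spanned the widest range. Mt-nd4l was the highest at 5.01 ± 0.21 (SE) on the log2 scale, with adjusted p = 1.3e-25 (edgeR, n = 23 and 23). Mt-nd4 was at 4.80, but on a median of only 7 counts in glomeruli (0 to 20), so the size of that value is uncertain. Levels of Mt-nd4l and Mt-nd3, which set the ends of the range, are also uncertain, as set out with the levels below. Mt-nd5 was at 4.27, Mt-nd6 at 4.02, Mt-nd2 at 4.01 and Mt-nd1 at 3.89. Mt-nd3 was the lowest protein-coding gene, at 3.43 ± 0.26, and the only one whose groups overlapped in log2 CPM, with 22 of 23 S1 libraries above all glomerular ones. In RPKM that number was 2 of 23 for Mt-nd3, 13 for Mt-nd6, 19 for Mt-atp8 and 20 for Mt-nd2. Mt-cytb, the complex III subunit that carries the quinone sites, was 4.5 ± 0.20 higher. The catalytic core of cytochrome c oxidase differed by similar amounts, with Mt-co1 at 4.17 ± 0.19, Mt-co2 at 4.26 ± 0.17 and Mt-cox3 at 4.11 ± 0.19. The membrane subunits of ATP synthase, Mt-atp8 and Mt-atp6, were at 4.51 ± 0.27 and 4.37 ± 0.19.

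The rRNAs and tRNAs differed by less than nearly all of the mRNAs. Long rRNA AY172581.24 was 3.60 ± 0.20 higher in S1 tubules and short rRNA AY172581.9 was 3.17 ± 0.19 higher. Among the 16 tested tRNA rows the log2 fold change ran from 2.38 to 3.95. AY172581.19, the most abundant of them in both segments, stood at 3.95 ± 0.26, while AY172581.15 was at 3.29, AY172581.2 at 3.02, AY172581.14 at 2.88 and AY172581.18 at 2.74.

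The size of these differences depended on how libraries were scaled, and their order much less so. With total gene counts in place of TMM factors, the median of all genes moved from -0.59 to -2.18. Genes called higher were then 6.57% of those tested and genes called either way 91.5%, so 1609 were higher and 20798 lower, against 5438 and 7671 with TMM. Under that scaling 28 of 31 members were called higher, at a median of 1.64, and the 3 that were not (AY172581.6, AY172581.10 and AY172581.13, named after their values were seen) were tRNA rows at 0.80 to 1.13. With limma on log2(RPKM + 1) 24 members were called higher, beside 91.1% of all genes called and 6.53% called higher. Relative to the median of all genes, the members' median was 3.88 with TMM, 3.82 with total counts, 3.87 with TMM factors from the other genes alone and 3.88 in DESeq2.

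**Figure D2:**
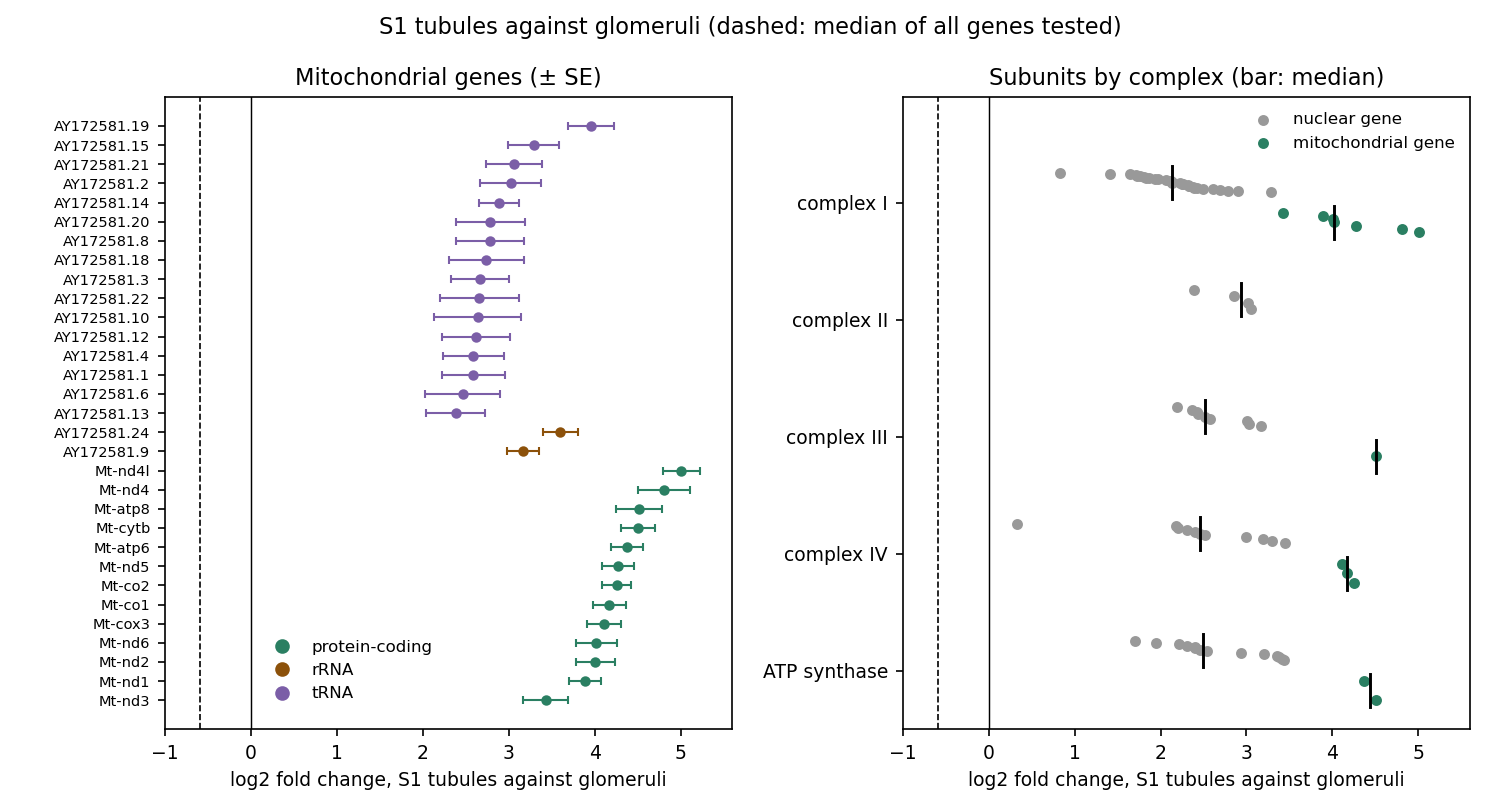
Log2 fold change of S1 tubules against glomeruli (horizontal axis) for 31 mitochondrial genes with SE (left) and for respiratory chain subunits by complex and genome of origin with group medians (right); the dashed line marks the median of all genes tested, -0.59. Protein-coding genes lie between 3.43 and 5.01, to the right of every nuclear subunit of the same complex.

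Nuclear genes for the same complexes were also higher in S1 tubules, by less. In complex I, 31 of 31 tested nuclear gene IDs (30 symbols, as Ndufa13 has 2 IDs) were called higher, with a median of 2.14 and a range of 0.84 to 3.29, where the 7 mitochondrial subunits had a median of 4.02. Complex III had 9 of 9 nuclear IDs higher (8 symbols, with Uqcr10 in 2 IDs) at a median of 2.52, complex IV 10 of 11 (9 of 10 symbols, with Cox6b1 in 2 IDs) at 2.46 and ATP synthase 14 of 14 at 2.5. Complex II, succinate dehydrogenase, has no subunit in the mitochondrial genome, and its 4 genes were higher at a median of 2.94. With total counts in place of TMM, 19 of 31 nuclear IDs of complex I were called higher and 1 lower. In complex IV 10 of 11 were then called higher and 1 lower. ATP synthase had 12 of 14 called higher, complex III 9 of 9 and complex II 4 of 4. Of all genes, 22.2% were called higher with TMM and 6.57% with total counts. All 13 mitochondrial subunits exceeded each nuclear subunit of their own complex (7 of 7, 1 of 1, 3 of 3 and 2 of 2), under TMM, total counts, TMM from the other genes and DESeq2. The gap between medians with TMM was 1.88 in complex I, 2.07 in complex III, 1.71 in complex IV and 1.94 in ATP synthase. These are descriptions of fold changes and were not tested against each other.

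Genes that act on mitochondrial nucleic acids and translation differed by less again. Of 18 genes for mitochondrial transcription and DNA replication, 16 were called higher in S1 tubules and 1 lower, with a median of 0.98. Tfam was 0.96 ± 0.14 and Polrmt 1.81 ± 0.18 higher, as were the elongation factor Tefm at 2.36 and the initiation factor Tfb2m at 1.99, while the mitochondrial topoisomerase Top1mt was lower at -2.85 ± 0.16. All 15 genes for RNA processing, stability and decay were called higher (median 1.12), with Lrpprc, which stabilizes mitochondrial mRNAs, at 2.56 ± 0.18. Mitochondrial ribosomal protein genes were called higher in 68 of 71 (median 1.46) and aminoacyl-tRNA synthetase genes in 14 of 16 (median 0.75). Among 7 transcriptional regulators 4 were higher and 2 lower, and Ppargc1a, a coactivator of mitochondrial gene programmes, was at 3.32 ± 0.16. Of 7 chaperones and proteases 6 were higher and 1 lower, with the chaperonin Hspd1 at 3.54 ± 0.15. In all, 191 of 203 tested nuclear gene IDs (188 of 200 symbols) were called higher and 4 lower with TMM, against 71 higher and 68 lower with total counts. Of all genes, 22.2% were called higher with TMM and 6.57% with total counts, where 53.5 and 91.5% were called either way. Most genes called with total counts were thus lower in S1 tubules. Under total counts the median turned negative for RNA processing (-0.50), aminoacyl-tRNA synthetases (-0.91), ribosomal proteins (-0.20) and transcription and replication (-0.68), but not for the subunits of any complex. Relative to the median of all genes these lists stayed positive under both scalings (1.72 and 1.68, 1.34 and 1.27, 2.05 and 1.97, 1.58 and 1.5).

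Levels per transcript length were compared within each tissue on the deposited RPKM scale for segments and FPKM scale for whole kidney. Mt-co1 had the highest median of the mRNAs in each tissue. Its level was 2076 RPKM at the lowest, 3902 at the median and 7205 at the highest in glomeruli, and 15040, 23180 and 30420 RPKM in S1 tubules, with no overlap. In whole kidney it was 8597, 14170 and 18530 FPKM. Long rRNA AY172581.24 exceeded it severalfold, with medians of 56360 RPKM in glomeruli, 192900 RPKM in S1 tubules and 269200 FPKM for whole kidney. Short rRNA AY172581.9 was at 53430 RPKM, 149200 RPKM and 86540 FPKM.

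Neighbours in the order of level were often not separable library by library: Mt-co1 exceeded Mt-atp6 in 18 of 23 glomerular and 19 of 23 S1 libraries. Glomerular medians were 2651 RPKM for Mt-atp6, 2427 for Mt-cytb and 2356 for Mt-cox3, and Mt-cytb exceeded Mt-cox3 in 10 of 23 libraries. In S1 tubules Mt-atp6 was at 17040 RPKM and Mt-cytb at 16320, with Mt-atp6 the higher in 15 of 23. Mt-atp8, Mt-co2, Mt-nd1, Mt-nd2 and Mt-nd5 followed, between 6428 and 10340 RPKM in S1 tubules and between 1219 and 1679 RPKM in glomeruli. Mt-nd5 exceeded Mt-nd6, the only protein-coding gene read from the light strand, in 23 of 23 libraries of each segment. Mt-nd6 was at 219 RPKM in glomeruli and 1749 RPKM in S1 tubules, and Mt-nd4l at 153 and 1731 RPKM. Segment libraries do not keep strand, so sense reads of Mt-nd6 and antisense reads of the opposite strand cannot be told apart there.

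A pair of complex I genes stood far below the rest in the segments. Mt-nd3 was at 25.3 RPKM in glomeruli and 94.6 RPKM in S1 tubules, but at 1537 FPKM in whole kidney. Mt-nd4 was at 0.397 RPKM, 3.43 RPKM and 55.6 FPKM, and 1 of 23 glomerular libraries had it at 0 counts. Both genes lay below Mt-nd4l, which is transcribed with Mt-nd4 on 1 mRNA, in 23 of 23 libraries of each segment. Reads placed at more than 1 site were not counted, and their entries made up a median of 50.1% of all placed entries in glomeruli, 41.6% in S1 tubules and 53.5% for whole kidney. Whether copies of mitochondrial sequence in the nuclear genome take reads from these rows was not tested, and levels of Mt-nd4 and Mt-nd3 are uncertain for that reason. Overlap of Mt-atp8 with Mt-atp6 and of Mt-nd4l with Mt-nd4 makes those values uncertain too.

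**Figure D3:**
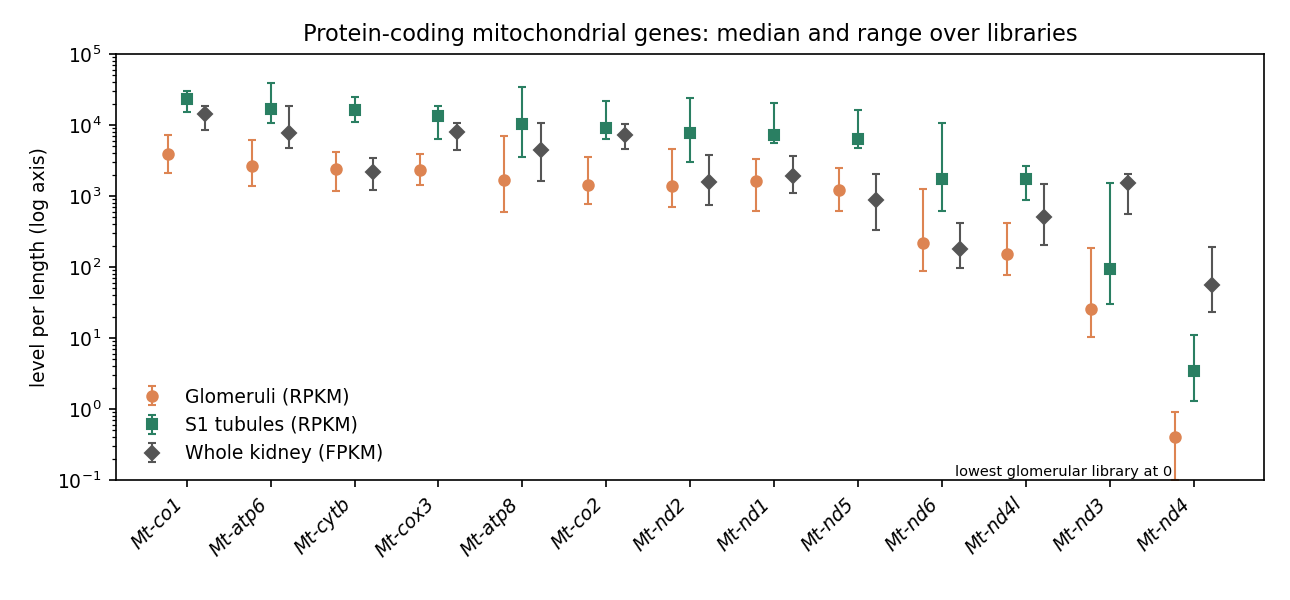
Level per length (vertical log axis; RPKM in glomeruli and S1 tubules, FPKM in whole kidney) of the 13 protein-coding mitochondrial genes, ordered by S1 median; points are medians and bars the range over 23, 23 and 24 libraries. By median, Mt-co1 is highest in each tissue and Mt-nd4 lowest, at medians of 0.397, 3.43 and 55.6, with the glomerular library at 0 off the log axis.

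Transfer RNA rows were a trace of the counts. They took a median of 0.00779% of gene counts in glomeruli, 0.0247% in S1 tubules and 0.000917% for whole kidney. AY172581.19 led in the segments, with mean CPM of 28.6 in glomeruli and 150 in S1 tubules. Next by mean CPM were AY172581.18 and AY172581.14 in glomeruli (14.4 and 13.3) and AY172581.18 and AY172581.2 in S1 tubules (44.4 and 40.6). In whole kidney AY172581.15, AY172581.2 and AY172581.8 led, at only 3.58, 1.53 and 1.33 CPM.

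Within the mitochondrial counts, rRNA outweighed mRNA in every tissue, and by less in S1 tubules. The rRNA rows took 87.4% ± 1.81 (SD, n = 23) of mitochondrial counts in glomeruli, 79.9% ± 2.70 (SD, n = 23) in S1 tubules and 91.3% ± 1.56 (SD, n = 24) in whole kidney. Protein-coding genes took 12.6, 20.2 and 8.65% at the median. The log2 ratio of rRNA to protein-coding counts, which does not depend on scaling between libraries, was 2.81 ± 0.236 (SD, n = 23) in glomeruli and 2.01 ± 0.241 (SD, n = 23) in S1 tubules. S1 tubules were lower by 0.80 (permutation test, p = 2e-05, the smallest that 100000 resamples can give), and 20 of 23 S1 libraries lay below all glomerular ones. Within times, 7 of 7, 8 of 8 and 6 of 8 S1 libraries lay below all glomerular libraries. For the ratio of Mt-nd6 to the other protein-coding counts no difference was detected (p = 0.773, permutation test), with means of -7.07 in glomeruli and -7.15 in S1 tubules.

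**Figure D4:**
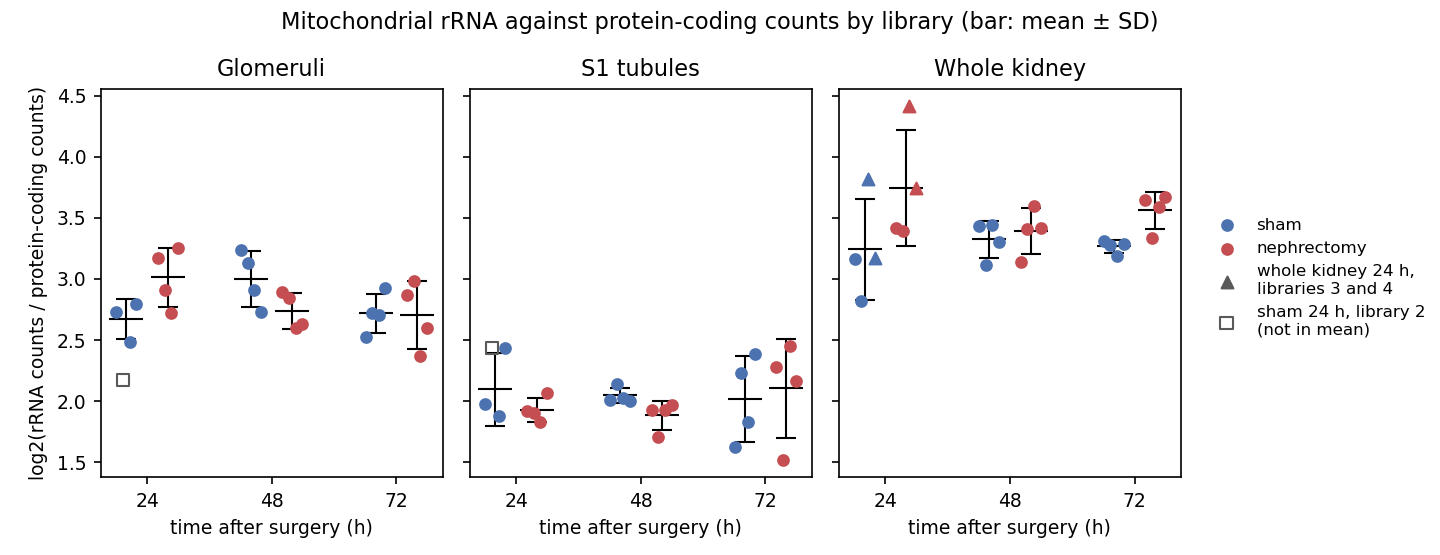
Log2 ratio of mitochondrial rRNA to mitochondrial protein-coding counts (vertical axis) against time after surgery (h), with 1 point per library and bars for mean ± SD. Glomerular points centre on 2.81, S1 points on 2.01 and whole kidney points on 3.42, and at 72 h the 4 whole kidney nephrectomy points lie above the 4 sham points.

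Whether loss of the other kidney changed the mitochondrial part of the transcriptome was asked in each tissue and at each time. No difference in share passed the test in any of them, and the sign varied with time. In glomeruli at 24 h the nephrectomy libraries had shares of 14.1, 16.1, 14.2 and 15.5% and the sham libraries 16.6, 15.8 and 11.66%. At 48 h the values were 18.3, 21.3, 15.8 and 19.9% against 14.9, 17.7, 19.8 and 16.2%, and at 72 h 13.4, 11.2, 18.1 and 18.6% against 22.9, 16.6, 15.6 and 9.87%. Groups overlapped at each time. Differences of means (nephrectomy less sham) were 0.276, 1.68 and -0.880 points, with exact permutation p = 0.886, 0.314 and 0.771, and 0.358 points over the 3 times (exact p = 0.778).

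In S1 tubules the sign also varied with time. At 24 h the shares were 46.8, 63.5, 60.2 and 59.5% after nephrectomy and 54.7, 54.2 and 60.1% after sham surgery. At 48 h they were 57.1, 53.6, 58.1 and 54.5% against 60.1, 55.9, 66.6 and 58.3%, so the nephrectomy group was lower on average with some overlap, and lower in 4 of 4 pairs of the same number (sign-flip permutation within pairs, exact p = 0.125, the smallest that 4 pairs can give). At 72 h they were 52.0, 72.0, 70.02 and 63.3% against 58.5, 72.3, 41.3 and 67.4%. Differences were 1.20, -4.41 and 4.46 points (exact permutation p = 0.857, 0.114 and 0.629), and 0.413 points over the 3 times (exact p = 0.901). Taken within same-numbered pairs the 24 h difference was -0.805 points (exact p = 0.750). Without sham library 2 the 48 h difference was -5.84 points (exact p = 0.0286), and without sham library 3 the 72 h difference was -1.75 points. Of the 8 runs that left out 1 library at 48 h, only 1 gave p under 0.05, with exact permutation p from 0.0286 to 0.257.

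Whole kidney differed in sign between times as well. At 48 h the nephrectomy libraries had 52.5, 53.4, 51.2 and 46.5% and the sham libraries 59.1, 47.7, 63.6 and 57.7%, a difference of -6.13 points (exact permutation p = 0.143), which was -9.24 points (exact p = 0.0286) without sham library 2. That was the only 1 of 8 such runs with p under 0.05, and exact permutation p ran from 0.0286 to 0.314. At 72 h the values were 60.8, 55.4, 50.7 and 55.1% against 57.7, 50.7, 48.4 and 51.3%, a difference of 3.51 points (exact p = 0.286). Nephrectomy was then the higher in every pair of the same number (sign-flip permutation within pairs, exact p = 0.125, the smallest that 4 pairs can give). At 24 h the spread was much wider: 66.3, 64.6, 71.0 and 74.2% after nephrectomy against 49.2, 36.0, 80.6 and 73.5% after sham surgery, a difference of 9.18 points (exact p = 0.429). Libraries 1 and 2 alone differed by 22.8 points, with nephrectomy higher, whereas sham library 3 exceeded both nephrectomy libraries numbered 3 and 4. Over the 3 times the difference was 2.19 points (exact p = 0.592), and 6.73 points (exact p = 0.232) without the 24 h libraries numbered 3 and 4. Designs of 4 against 4 or 4 against 3 cannot give p below 0.0286. Adjusted over the 9 comparisons by time, p ran from 0.643 to 0.886, and over the 3 means it was 0.901 in each.

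Gene by gene, edgeR called 0 of the mitochondrial members different between nephrectomy and sham in any tissue at 24, 48 or 72 h, over the 3 times, or between times. Tested members numbered 31 in glomeruli, 31 in S1 tubules and 24 for whole kidney. For both segments the share of all genes called was 0% at each time and over the 3 times. For whole kidney it was 0.236% at 24 h, 0% at 48 h, 0.00638% at 72 h and 2.86% over the 3 times, and for the difference between times 0.00446% (glomeruli), 0.0109% (S1) and 0.0191% (whole kidney) of genes were called. At an unadjusted p under 0.05 the members numbered 0, 1, 0 and 0 in glomeruli, 0, 0, 13 and 9 in S1 tubules and 0, 0, 1 and 3 in whole kidney, for 24 h, 48 h, 72 h and the mean. The share of all genes under that unadjusted limit is not given here, so no excess among the members is read from these counts. DESeq2 called 0 members in each of these comparisons except S1 tubules at 72 h. The difference in mean effect between the segments was called for 0 of 31 members and 0% of 24488 genes.

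In glomeruli the median log2 fold change of the 31 members was -0.24 at 24 h, 0.36 at 48 h and 0.05 at 72 h. At 48 h 13 of 13 protein-coding genes had positive values, from 0.18 to 0.82. The gene with p under 0.05 was Mt-nd4l, with 197, 301, 122 and 155 RPKM after nephrectomy and 81.2, 114, 143 and 132 RPKM after sham surgery, groups that overlap. Its log2 fold change was 0.79 ± 0.38 (SE), adjusted p = 1 (edgeR).

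In S1 tubules the values at 72 h were set largely by 1 library. The median over members was 0.58 at 24 h, -0.23 at 48 h and 1.41 at 72 h, and the 13 members with p under 0.05 at 72 h were 12 tRNA rows and Mt-nd3. Mt-nd3 had 59.9, 1525, 94.6 and 125 RPKM after nephrectomy and 127, 39.5, 132 and 106 RPKM after sham surgery. The tRNA row AY172581.12, named with AY172581.8 after their values were seen, had 24.9, 4320, 60.2 and 168 RPKM against 86.6, 23.9, 155 and 47.7 RPKM. In both genes replicate 2 of the nephrectomy group lay far above the other 7 libraries, which overlapped. Log2 fold changes were 2.12 ± 0.64 for Mt-nd3, 3.95 ± 1.04 for AY172581.12 and 3.83 ± 1.01 for AY172581.8, each with adjusted p = 0.279 (edgeR). Without that library they were -0.02, 0.28 and 0.38, and 0 members had an unadjusted p under 0.05 at 72 h and 0 over the 3 times. DESeq2 called 7 members higher at 72 h, beside 4.13% of all genes called and 4% called higher. In that library 0.417% of gene counts fell on tRNA rows and 8.05% of unique reads fell in genes, the lowest part among the S1 libraries used. It also had the lowest proximal tubule markers of the 23 S1 libraries, at 7.45 log2 CPM beside 9.20 to 9.87 in the other 7 at 72 h, and the highest podocyte markers, at 2.91 beside 0.58 to 1.68. Their part in the fold changes was not tested.

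Whole kidney had the smallest spread between libraries of the 3 tissues (common biological coefficient of variation 0.248, against 0.625 in glomeruli and 0.713 in S1 tubules) and the most genes called over the 3 times. All 13 protein-coding members had negative values over the 3 times, from -0.04 for Mt-nd6 to -0.64 for Mt-atp8, and with total counts in place of TMM 2 of the 13 were positive. The members' median was -0.15, beside -0.01 for all genes. Proximal tubule markers moved with these values: 12 of 12 were below 0 over the 3 times, with a median of -0.45. Of them 3 were called lower, beside 2.86% of all genes called either way. The gap was widest at 24 h, where their mean log2 CPM was 6.985 after nephrectomy and 8.165 after sham surgery. It was 8.367 against 8.457 at 48 h and 8.144 against 8.537 at 72 h. The part of these markers in the result was not tested. Mt-atp6 had the smallest p among mRNAs, with a log2 fold change of -0.58 ± 0.27 (SE) and adjusted p = 0.274 (edgeR). Its level was 8800, 7102, 5021 and 5853 FPKM after nephrectomy at 48 h against 10361, 7975, 10688 and 12267 FPKM after sham surgery. At 72 h it was 6860, 7671, 5414 and 5217 against 11178, 7361, 7843 and 7238 FPKM, with overlap at both times. Without the 24 h libraries numbered 3 and 4 its value over the 3 times turned to 0.11. Among tRNA rows AY172581.19 was at 0.53 ± 0.18 (adjusted p = 0.118, edgeR). At 72 h it had 50, 32, 34 and 37 counts after nephrectomy and 13, 17, 28 and 31 after sham surgery, groups that do not overlap, at 0.83 and adjusted p = 0.785 (edgeR). In log2 CPM, 1 of 24 tested members lay higher without overlap at 72 h, and 1 of 24 lay lower at 48 h. For S1 tubules at 24 h, 3 of 31 lay higher without overlap. The share of all genes without overlap is not given, so nothing is read from these counts.

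At 24 h the whole kidney result turned on which libraries were kept. Mt-nd4l had 707, 714, 397 and 1242 FPKM after nephrectomy and 206, 269, 1225 and 1486 FPKM after sham surgery. Sham libraries 1 and 2 were thus the lowest of the 8 and sham library 4 the highest. With 2 against 2 libraries, after libraries 3 and 4 were dropped, 10 members were called higher, beside 16.4% of 16122 genes called and 6.22% called higher. They were Mt-nd4l (2.26 ± 0.32 SE), Mt-atp8 (2.45), Mt-nd5 (1.84), Mt-nd2 (1.74), Mt-atp6 (1.59), Mt-nd1 (1.09), Mt-cox3 (0.96), short rRNA AY172581.9 (2.09), AY172581.4 (3.82) and AY172581.21 (2.11). The same fit called 1 member over the 3 times (Mt-nd4l at 0.57; 4.87% of genes called and 2.02% called higher) and 9 for the difference between times (11.4% of genes called). With all 8 libraries none of these was called at 24 h. Proximal tubule markers moved with the surgery in libraries 1 and 2, at a mean log2 CPM of 7.74 and 7.69 with nephrectomy against 8.87 and 8.86 with sham surgery, and their part in the result was not tested.

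**Figure D5:**
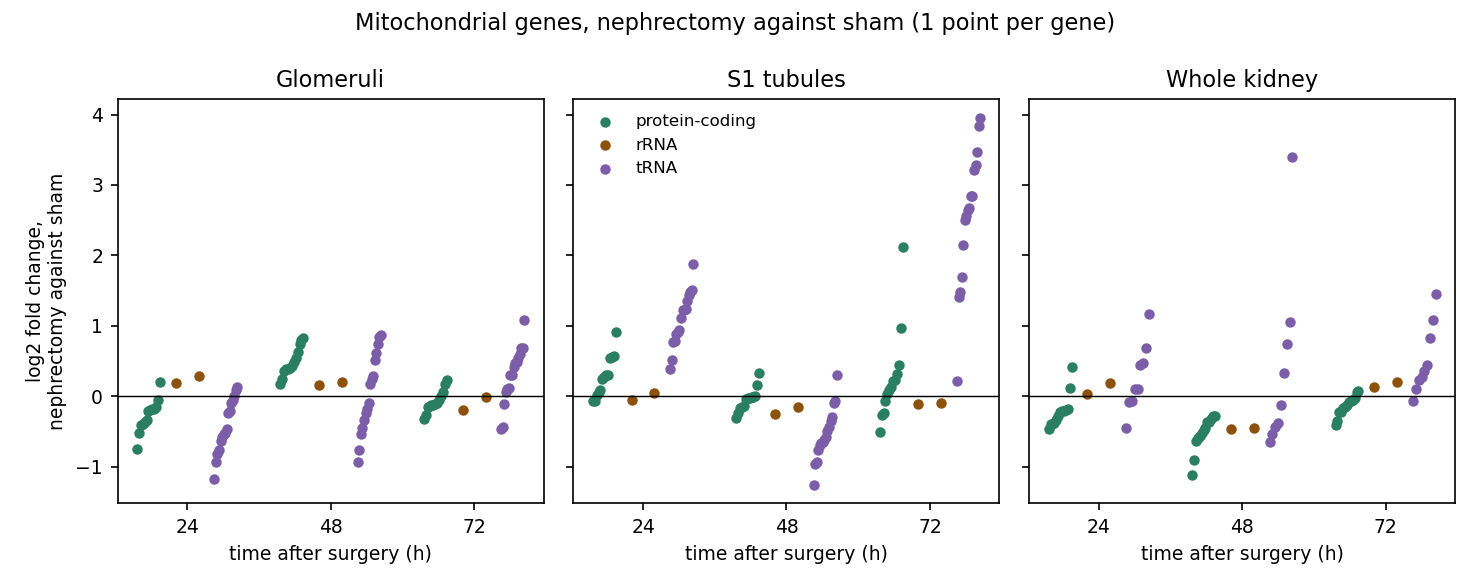
Log2 fold change of nephrectomy against sham (vertical axis) at 24, 48 and 72 h, with 1 point per tested mitochondrial gene sorted by value within class and time. None of the points passed the test; the spread is widest for tRNA rows of S1 tubules at 72 h, which reach 3.95.

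The balance of rRNA to mRNA after surgery was compared as well. In whole kidney at 72 h the log2 ratio was 3.65, 3.34, 3.59 and 3.67 after nephrectomy and 3.31, 3.28, 3.19 and 3.29 after sham surgery, and the groups did not overlap. At 48 h it was 3.14, 3.41, 3.60 and 3.42 against 3.43, 3.12, 3.44 and 3.30, which did overlap, and at 24 h 3.42, 3.39, 4.41 and 3.74 against 3.16, 2.82, 3.81 and 3.17, also with overlap. Over the 3 times the nephrectomy group was higher by 0.29 (exact permutation p = 0.0170), which did not pass after adjustment over 6 composition tests (adjusted p = 0.102). Without the 24 h libraries numbered 3 and 4 the difference was 0.26 (exact p = 0.00558). In glomeruli the difference was 0.02 (exact p = 0.817) and in S1 tubules -0.08 (exact p = 0.448). By time, S1 ratios after nephrectomy at 48 h were 1.93, 1.71, 1.93 and 1.97 and lay below the sham values of 2.01, 2.14, 2.03 and 2.00, a difference of -0.16 (exact p = 0.0286), whereas the differences were -0.17 at 24 h (exact p = 0.400) and 0.09 at 72 h (exact p = 0.800). In whole kidney they were 0.50, 0.07 and 0.29 at 24, 48 and 72 h (exact p = 0.171, 0.686 and 0.0286), and in glomeruli 0.34, -0.26 and -0.01 (exact p = 0.143, 0.114 and 0.971). Adjusted over the 18 composition tests by time, the smallest p was 0.257. For Mt-nd6 against the other mRNAs the differences were -0.17, 0.26 and 0.26 in glomeruli, S1 tubules and whole kidney (exact p = 0.575, 0.250 and 0.362).

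Nuclear genes of the listed mitochondrial pathways gave no call after nephrectomy in edgeR either. Over the 3 times 0 of 201 tested gene IDs were called in glomeruli, 0 of 203 in S1 tubules and 0 of 209 in whole kidney (199, 200 and 203 symbols), where edgeR called 2.86% of all genes. At an unadjusted p under 0.05 they numbered 0, 2 and 17, and DESeq2 called 0, 0 and 2, the last beside 5.52% of all whole kidney genes. No share of all genes at the unadjusted limit is given, so the 17 are not read as an excess. List medians over all of these genes were 0.08, -0.03 and -0.03. The smallest adjusted p in whole kidney belonged to Mrps18c, a small-subunit protein of the mitochondrial ribosome, at -0.30 ± 0.09 (adjusted p = 0.092, edgeR), and to the complex I gene Ndufv3 at -0.22 ± 0.07 (adjusted p = 0.096, edgeR). Ssbp1, which binds single-stranded mitochondrial DNA, was at -0.37 and the protease subunit Clpx at -0.22. Tfam was at -0.08 ± 0.07, Polrmt at -0.01 ± 0.08, Lrpprc at -0.04 ± 0.05 and Ppargc1a at -0.04 ± 0.14 in whole kidney. In S1 tubules the regulators Nrf1 and Ppargc1b were at -0.43 and 0.49 (adjusted p = 1 for each, edgeR), and in glomeruli Tfam was at 0.24 ± 0.16 and Ppargc1a at 0.17 ± 0.16.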

How the data were processed

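RNA-seq gene tables of 72 rat libraries were used. The authors deposited raw read counts per gene, with RPKM (reads scaled to transcript length and library size) for glomeruli and S1 tubules and FPKM (fragments scaled likewise) for whole kidney. Trimmomatic 0.32, STAR 2.4.0.1, SAMtools and HTSeq are named in the submitters' processing notes; the build, the annotation and the strand setting used in counting are not given in those notes or the labels. The 5 HTSeq summary entries per library were left out of gene totals.

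The mitochondrial members and the nuclear and marker lists were chosen with earlier results of these data known. Counts were fitted with edgeR 4.0.16 (R 4.3.3; TMM factors, filterByExpr with a minimum count of 10, quasi-likelihood test) per tissue, with a mean for each of 6 groups, and over both segments with 12 groups. P-values were Benjamini-Hochberg adjusted over all genes, with a threshold of 0.05, and checked on simulated data, where 2-fold changes were recovered in 67, 72 and 98 of 100 genes in glomeruli, S1 tubules and whole kidney (mean of 3 times) and in 85 of 100 for S1 against glomeruli. Shares and ratios of counts were compared with two-sided exact permutation tests within times, or 100000 resamples between segments (SciPy 1.17.1). Fold changes are log2 with SE.

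Named were the protein-coding and rRNA genes, the 3 tRNA rows with the highest mean CPM per tissue and any called, up to 3 genes per nuclear list with the smallest p, and Tfam, Polrmt, Ppargc1a and Lrpprc; others are marked where named. Alternatives were total counts, TMM without mitochondrial genes, no filter, DESeq2 1.42.0, limma 3.58.1 on log2(RPKM + 1) or log2(FPKM + 1), a replicate block, other bases for the share, and libraries left out or put back.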

Additional observations from a re-analysis of the deposited data

Results flagged for a closer look

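Of 80 groups of 4 libraries examined over 5 quantities, 2 held a library whose gap to its nearest neighbour passed Dixon's 95% limit on the share of the group's range; chance alone gives about 1 in 20 groups. In S1 tubules at 48 h after nephrectomy, library 2 had a log2 ratio of mitochondrial rRNA to protein-coding counts of 1.707, where the other 3 had 1.93, 1.93 and 1.97. In S1 tubules at 72 h after nephrectomy, library 2 had 0.4167% of its gene counts on mitochondrial tRNA rows, where the other 3 had 0.0117, 0.0262 and 0.0421%.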

How the results depend on the processing

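The higher share in S1 tubules, its lower rRNA to mRNA ratio and the call of the members against glomeruli held under each alternative run, apart from the number of members called, which was 24 with limma and 28 with total counts against 31. Of all genes, 91.1, 91.5 and 53.5% were called in these 3 runs, and 6.53, 6.57 and 22.2% were called higher. Differences in share between nephrectomy and sham, none of which passed the test, changed sign as follows (percentage points). With the sham 24 h libraries numbered 2 put back, glomeruli gave -8.85 at 24 h and -2.68 over the times. The same setting moved a log2 value that is not a share. The S1 less glomeruli difference in the log2 ratio of Mt-nd6 to other protein-coding counts became 0.0037, from -0.080. On uniquely placed reads, glomeruli at 72 h gave 0.0997, and S1 tubules -3.69, 3.01 and -7.16 at 24, 48 and 72 h and -2.62 over the times. With protein-coding members alone, glomeruli at 24 h gave -0.352, S1 tubules at 48 h 0.151, and whole kidney -0.622 at 24 h, -0.540 at 72 h and -0.618 over the times. Members called became 7 in S1 tubules at 72 h with DESeq2, beside 4.13% of all genes called. Without the 24 h libraries numbered 3 and 4 they became 10, 1 and 9 in whole kidney at 24 h, over the times and between times. Of all genes, 16.4, 4.87 and 11.4% were called there. Listed nuclear genes called in whole kidney over the times became 2 with DESeq2 and 3 without those 24 h libraries. Of all genes, 5.52 and 4.87% were called in these runs. Mt-atp6 became 0.11 without those 24 h libraries. The cause was not tested.

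Leaving out each library in turn gave ranges of -1.24 to 1.25 (24 h), 0.841 to 2.70 (48 h), -2.996 to 1.35 (72 h) and -0.347 to 1.10 (over the times) in glomeruli, with -0.0074 to 0.061 for the log2 rRNA to mRNA ratio. They were -0.805 to 4.76, -5.84 to -2.28 and -1.75 to 8.604 at 24, 48 and 72 h and -1.66 to 1.80 over the times in S1 tubules, and 1.25 to 16.1, -9.24 to -3.93 and 1.74 to 5.403 at 24, 48 and 72 h and -0.455 to 4.49 over the times in whole kidney. Mt-nd3 in S1 tubules at 72 h ran from -0.019 to 2.45.

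Over all times, library numbers did not meet the condition that every same-numbered pair correlate above 0.1. S1 tubules at 24 h (3 of 3 surgery pairs) and 48 h (4 of 4) and glomeruli at 48 h (4 of 4) did meet it. So did every S1 and glomerular pair at 24 and 48 h. The correlation of deviations passed 0.1 in 20 of 23 S1 and glomerular pairs. Those that did not pass were all at 72 h, namely nephrectomy 2 (-0.065) and 3 (-0.439) and sham 4 (0.087). Pairs of surgeries passed in 8 of 11, 10 of 11 and 7 of 12 in glomeruli, S1 tubules and whole kidney, with the own number the best match in 4 of 11, 8 of 11 and 2 of 12. With a replicate block, 31 members were called between segments and 0 between surgeries. The share of all genes called with the block is not given, so nothing is read from these counts. With the block, the difference in mitochondrial share became -0.0895 in glomeruli at 24 h, and -0.805 at 24 h and -0.254 over the times in S1 tubules. The shallowest library had 2643258 gene counts, and tRNA rows are limited by it.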

Other observations

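The balance between the rRNA rows varied with the time of collection, over both surgeries together, and is given as values with no test. In glomeruli the long rRNA took 47.1 to 52.7% of mitochondrial counts at 48 h, 52.3 to 61.0% at 24 h and 52.7 to 59.8% at 72 h. In S1 tubules it took 47.0 to 50.6% at 48 h, 52.8 to 61.7% at 24 h and 50.8 to 62.7% at 72 h. In whole kidney the medians ran the opposite way, with the long rRNA at 77.1 to 83.4% at 48 h (median 81.5%), 71.4 to 85.5% at 24 h (median 75.3%) and 69.3 to 77.8% at 72 h (median 73.4%). There the short rRNA took 8.23 to 13.7% at 48 h, 14.9 to 20.8% at 72 h and 4.48 to 24.2% at 24 h.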
